A study of Mus musculus with 16 samples.

Results

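The genes described here are 9 laminin chains (Lamb1, Lamb2, Lamb3, Lama1, Lama2, Lama3, Lama4, Lama5 and Lamc1), taken by gene symbol from a table of 54532 genes in 16 mouse melanoma libraries. Of these 9, 5 passed the filter on low values used for testing, which kept 12319 genes with at least 1 FPKM (fragments scaled to gene length in kilobases and to depth) in at least 4 libraries. Lamb1 leads the set because it was the 1 gene called between cisplatin and PBS in wild-type tumours, so the values of the 8 wild-type libraries chose it. That comparison is therefore given as a description for every chain, with no test. The comparisons of Lamb1 between genotypes and its interaction share those wild-type libraries and are also descriptions. Lamb1 was tested between cisplatin and PBS in BdP tumours, and the other chains between genotypes as well.

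Laminins are secreted proteins, each assembled from an α, a β and a γ chain that wind into a trimer, cross-shaped in many but not all of them. Many laminins polymerise at the cell surface, where integrins and dystroglycan hold them, and form the first sheet of a basement membrane. Nidogen and perlecan link that sheet to type IV collagen. The chain make-up differs between tissues: the α4 and α5 chains are typical of blood vessels, α2 of muscle and nerve, and α3 with β3 of the epidermis, while γ1 is part of most trimers.

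B16F10 is a mouse melanoma line. BdP cells are its derivative with low Pros1, the gene of protein S, which a label for genotype also calls a knockdown; the labels do not say whether BdP is 1 clone. Cells of either kind were implanted under the skin of C57BL/6J mice that were 8 weeks old and of both sexes, and whole end-stage tumours were disaggregated for bulk RNA sequencing. The groups, each of 4 libraries, were BdP tumours given cisplatin, BdP tumours given PBS, wild-type (WT) tumours given cisplatin and WT tumours given PBS. Cisplatin, a platinum drug that crosslinks DNA, was given at 5 mg/kg once daily for 3 days in 2 rounds that began 8 days after implantation, and PBS on the same schedule. No source states what a replicate number shares, nor that each library is a separate animal beyond its number, so p-values measure the spread between these libraries.

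Between 10051843 and 27055771 reads per library fell in genes. Mitochondrial transcripts took 76.9% of WT PBS 1, which left 2322202 other reads, 12.2% of WT cisplatin 3 and 21.7% of WT cisplatin 4. Within a group, libraries correlated at 0.882 to 0.975 across genes. Pros1 was at 1.73 to 2.52 FPKM in BdP tumours under cisplatin and 1.24 to 1.61 FPKM in BdP tumours under PBS, against 7.78 to 11.5 FPKM in WT tumours under cisplatin and 4.79 to 9.77 FPKM in WT tumours under PBS. All 8 markers of melanocytes passed the filter, with summed levels of 5950.6 to 7097.6, 6467.2 to 7354, 6456.6 to 6785.6 and 5398.3 to 9587.9 FPKM in the same order of groups.

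The promoters of Lamb1 and Lamb2 are shown because these β chains take the same place in a trimer and differed in how they varied between the groups. Of the 9 chains, 5 had an entry in the RefSeq promoter table (build GRCm38.p6), each from 250 bases before to 50 after a start site. Both windows are on the plus strand, Lamb1 at chr12:31265043-31265342 and Lamb2 at chr9:108479612-108479911. Capitals mark matches, on either strand, to 6 motifs. These were the GC box, spelled GGGCGG, the CCAAT box, whose name spells it, the TATA box, spelled TATAAA, an E-box spelled CATGTG, another E-box spelled CACGTG, and the AP-1 motif, spelled TGANTCA, where N is any base. No matches overlapped. Positions count from RefSeq's start site, which is not the gene start in the deposited table.
Lamb1: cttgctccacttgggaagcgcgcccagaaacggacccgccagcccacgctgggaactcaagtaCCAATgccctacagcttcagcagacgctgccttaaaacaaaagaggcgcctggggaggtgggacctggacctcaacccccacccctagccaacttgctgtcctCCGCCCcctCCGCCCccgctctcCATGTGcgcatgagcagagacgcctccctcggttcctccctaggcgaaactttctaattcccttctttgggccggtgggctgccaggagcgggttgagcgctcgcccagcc
Lamb2: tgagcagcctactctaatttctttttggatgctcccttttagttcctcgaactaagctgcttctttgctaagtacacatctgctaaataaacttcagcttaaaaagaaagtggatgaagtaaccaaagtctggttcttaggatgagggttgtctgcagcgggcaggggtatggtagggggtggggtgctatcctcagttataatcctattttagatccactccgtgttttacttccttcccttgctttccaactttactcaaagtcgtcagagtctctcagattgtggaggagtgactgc
The Lamb1 window held 63.67% G and C with 18 CpG dinucleotides, and the Lamb2 window 44% with 4, against a median of 52.67% G and C over 32817 promoters. The Lamb1 window had 2 GC boxes, whose first bases lie at -84 and -75 from the start site, a CCAAT box at -187 and the first E-box at -61. The Lamb2 window matched none of the 6. Over all promoters, 35.63% held the GC box, 37.39% the CCAAT box, 13.62% the TATA box, 14.16% the first E-box, 7.149% the other E-box and 7.813% the AP-1 motif.

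Lamb1 encodes the β1 chain, the β chain of most embryonic and many adult basement membranes (ENSMUSG00000002900, chr12:31265234-31329644, plus strand). It was at 0.468, 0.906, 0.352 and 0.345 FPKM in BdP tumours under cisplatin and at 0.400, 0.268, 0.299 and 0.484 FPKM in BdP tumours under PBS. It was at 4.74, 5.21, 5.31 and 5.46 FPKM in WT tumours under cisplatin and at 1.55, 1.82, 2.32 and 2.46 FPKM in WT tumours under PBS. Every BdP library lay below every WT library, and the WT libraries under cisplatin lay above those under PBS, while the BdP groups overlapped. Since all 8 BdP libraries were under 1 FPKM, Lamb1 passed the filter through its WT libraries alone. These levels rest on 504 recovered reads in BdP tumours under cisplatin, 393 in BdP under PBS, 4299 in WT under cisplatin and 1558 in WT under PBS, of which WT PBS 1 gave 30.

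**Figure D1:**
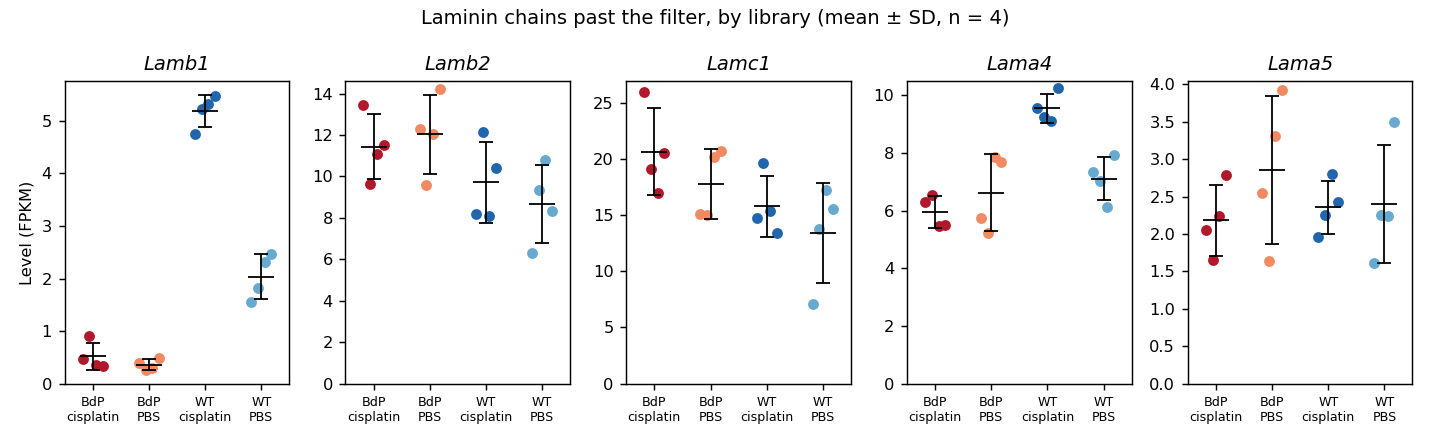
Level in FPKM of the 5 laminin chains that passed the filter, 1 panel per chain; each point is a library and the bars are the mean and SD of 4. Lamb1 lies under 1 FPKM in all BdP libraries and between 4.74 and 5.46 FPKM in WT tumours under cisplatin, and Lama4 is lower in BdP than in WT tumours under cisplatin without overlap.

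Within BdP tumours, cisplatin made no detectable difference to Lamb1. The level was 0.518 ± 0.265 FPKM under cisplatin and 0.363 ± 0.0987 FPKM under PBS (SD, n = 4 each), and the exact two-sided permutation test on log2(FPKM + 1) gave p = 0.343, where 4 against 4 can give no less than 0.0286. The fitted difference on that scale was 0.14 ± 0.14 (SE), with a Benjamini-Hochberg adjusted p of 1 from limma. With a pseudocount of 0.1 it was 0.36 (exact permutation p = 0.343), and over 9 other settings it ran from 0.14 to 0.44 without a call. Without BdP cisplatin 2, the highest of these libraries, the difference was 0.03 (exact permutation p = 0.686). In that comparison 0 of 12319 genes were called (0%) at an adjusted p below 0.05, with 542 genes at an unadjusted p below 0.05 and 0 called by limma voom on recovered reads. Groups did not overlap for 4.42% of genes, and for 0 of the 5 chains tested.

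Between cisplatin and PBS in WT tumours, the comparison that chose Lamb1, its mean was 5.18 ± 0.310 FPKM under cisplatin and 2.04 ± 0.427 FPKM under PBS, 2.54 times as high. The difference was 1.03 ± 0.14 on the log2(FPKM + 1) scale. Lamb1 was the single call among 12319 genes (0.00812%), and groups did not overlap for 3.24% of genes and for 2 of the 5 chains, Lamb1 and Lama4. Nothing is read from those counts. The call that chose Lamb1 was sensitive to the processing: 2 of 9 other settings and 7 of 16 fits without 1 library kept it.

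Between genotypes, Lamb1 was lower in BdP tumours under either treatment. Under PBS the BdP mean was 0.178 times the WT mean, a difference of -1.15 ± 0.14 on the log2(FPKM + 1) scale. Under cisplatin it was 0.0999 times the WT mean, a difference of -2.04 ± 0.14. The pseudocount shrinks these differences of a gene at low level: with a pseudocount of 0.1 they were -2.21 and -3.18. The response to cisplatin in BdP minus that in WT was -0.89 ± 0.20, given without a test because WT libraries chose the gene.

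The make-up of the β chains does not depend on how libraries are scaled, since it is a ratio within each library. Lamb1 made up 3.35%, 8.39%, 3.00% and 2.88% of the summed FPKM of Lamb1, Lamb2 and Lamb3 in BdP tumours under cisplatin, and 3.03%, 2.63%, 2.39% and 3.28% in BdP tumours under PBS. It made up 36.5%, 30.0%, 38.6% and 33.9% in WT tumours under cisplatin, and 19.7%, 16.3%, 17.4% and 22.8% in WT tumours under PBS. The share was thus below 9% in all BdP libraries and above 16% in all WT libraries, and BdP cisplatin 2 stood apart from the rest of its group. WT PBS 1, with most of its reads mitochondrial, lay inside the range of its group. Within BdP tumours the share averaged 4.40% ± 2.66 under cisplatin and 2.83% ± 0.395 under PBS (SD, n = 4 each; exact permutation p = 0.229, two-sided). Without BdP cisplatin 2 the difference of 1.57 percentage points became 0.244 (exact permutation p = 0.457).

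**Figure D2:**
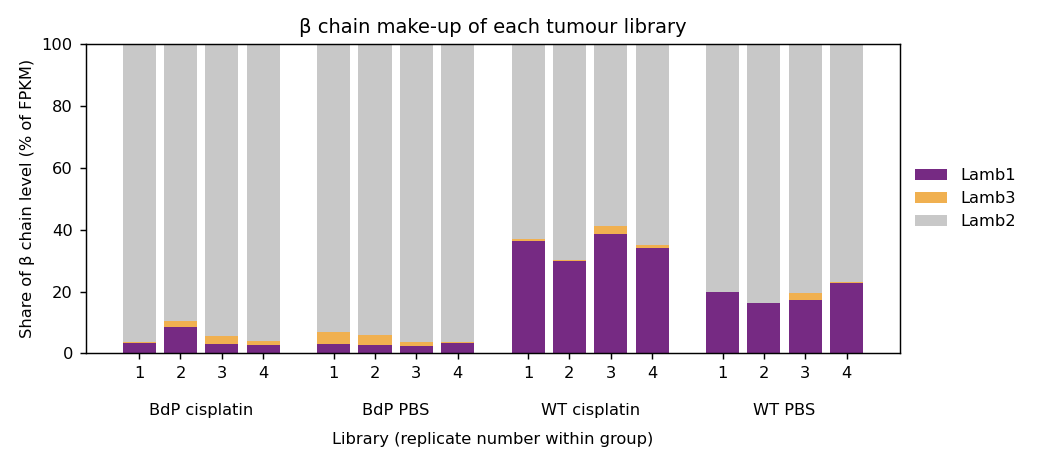
Share of the summed β chain FPKM taken by Lamb1, Lamb3 and Lamb2 in each of 16 tumour libraries, grouped by genotype and treatment; each bar is 1 library. Lamb1 takes 30.0% to 38.6% in WT tumours under cisplatin and 2.39% to 8.39% over the BdP libraries.

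Lamb2 encodes the β2 chain, found at the neuromuscular junction, in the kidney filter and in vessel walls (ENSMUSG00000052911, chr9:108479736-108490530, plus strand). It was at 13.5, 9.66, 11.1 and 11.5 FPKM in BdP tumours under cisplatin and 12.3, 9.59, 12.03 and 14.2 FPKM in BdP tumours under PBS. In WT tumours it was at 8.19, 12.2, 8.11 and 10.4 FPKM under cisplatin and 6.31, 9.32, 10.8 and 8.32 FPKM under PBS. All these groups overlapped. The difference between BdP and WT was 0.44 ± 0.16 under PBS (limma adjusted p = 0.181) and 0.22 ± 0.16 under cisplatin (adjusted p = 0.578), and that between cisplatin and PBS in BdP was -0.07 ± 0.16 (adjusted p = 1). Lamb2 was therefore the main β chain in every library, at 59.0% to 96.4% of the summed β level, and did not pass a test where Lamb1 was low.

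Lamb3, the β3 chain of epidermal laminin, did not pass the filter and was below 0.54 FPKM in every library. It had 0 reads in WT PBS 1 and WT PBS 2, where 3 reads, the limit a count of 0 allows, would stand for at most 0.232 FPKM. The highest values were 0.530 FPKM in BdP PBS 1 and 0.336 FPKM in WT cisplatin 3. Its gene model overlaps G0s2 and Hsd11b1 on the other strand, which reached 10.75 and 2.639 FPKM. No source states whether counting used strand, so its few reads are uncertain. The 8 keratinocyte markers, none of which passed the filter, summed to 0.326 to 1.5003, 0.395 to 1.05, 0.209 to 0.675 and 0.605 to 2.66 FPKM in BdP cisplatin, BdP PBS, WT cisplatin and WT PBS.

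Lamc1 encodes the γ1 chain, the partner of either β chain above (ENSMUSG00000026478, chr1:153218922-153332786, minus strand). It had the highest mean level per length of the 9 in all groups. It was at 26.0, 19.1, 16.9 and 20.5 FPKM in BdP tumours under cisplatin and 15.1, 15.0, 20.1 and 20.7 FPKM in BdP tumours under PBS. In WT tumours it was at 14.8, 19.6, 15.3 and 13.4 FPKM under cisplatin and 7.06, 13.8, 17.2 and 15.5 FPKM under PBS. The groups overlapped, and WT PBS 1, the library with 76.9% mitochondrial reads, was lowest. The difference between BdP and WT was 0.43 ± 0.22 under PBS (limma adjusted p = 0.298) and 0.36 ± 0.22 under cisplatin (adjusted p = 0.485), and that between cisplatin and PBS in BdP was 0.21 ± 0.22 (adjusted p = 1). A processed pseudogene, Gm8818, overlaps Lamc1 on the other strand at no more than 2.464 FPKM.

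Lama4 encodes the α4 chain, made by endothelial cells and pericytes among others (ENSMUSG00000019846, chr10:38965515-39110188, plus strand). Under cisplatin it was lower in BdP tumours, at 6.30, 6.54, 5.48 and 5.49 FPKM, than in WT tumours, at 9.58, 9.26, 9.12 and 10.2 FPKM. Under PBS it was at 5.74, 5.21, 7.86 and 7.70 FPKM in BdP tumours and 7.34, 7.03, 6.14 and 7.93 FPKM in WT tumours. The groups did not overlap under cisplatin and did under PBS. The difference was -0.60 ± 0.12 under cisplatin (limma adjusted p = 0.0244; exact permutation p = 0.0286, the smallest 4 against 4 can give) and -0.10 ± 0.12 under PBS (adjusted p = 0.643).

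Under cisplatin 1.07% of all genes were called between genotypes, 0.722% lower and 0.349% higher in BdP. The calls among the 5 chains tested were 2, both lower, of which Lamb1 was chosen on WT libraries. Groups did not overlap for 13% of genes and for the same 2 chains. Under PBS 0.99% were called, 0.576% lower and 0.414% higher, and among the chains Lamb1 alone. There groups did not overlap for 7.68% of genes and for 1 chain, Lamb1. WT libraries chose Lamb1 and alone carried it past the filter, so its place in these counts is a description under either treatment.

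The call of Lama4 was not stable. Its adjusted p ran from 0.0123 to 1 over 9 other settings, 4 of which kept the call, while the difference stayed between -0.71 and -0.51. It was lost without WT cisplatin 1 (adjusted p = 0.0839), 3 (0.0633) or 4 (0.0991) and without BdP cisplatin 1 (0.0572), 3 (0.0807) or 4 (0.0910), with differences of -0.57 to -0.63 in these fits. Without the 3 libraries rich in mitochondrial reads, 2 of them WT cisplatin libraries, it was -0.59 (adjusted p = 0.166). Within BdP tumours Lama4 differed by -0.12 ± 0.12 between cisplatin and PBS (adjusted p = 1), and in WT tumours by 0.38 ± 0.12, given as a description. The difference between these responses was -0.50 ± 0.17 (adjusted p = 0.835), and 0 of 12319 genes (0%) were called for that interaction, with 691 at an unadjusted p below 0.05 and 1 called by limma voom.

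The 12 endothelial markers summed to 42.6 to 60.8 FPKM in BdP tumours under cisplatin, 44.2 to 48.7 in BdP under PBS, 45.3 to 60.0 in WT under cisplatin and 45.9 to 59.2 in WT under PBS, with 4 of them tested, 0 called and none at 0 throughout. The 4 were Pecam1, Eng, Vwf and Egfl7, while Cdh5, Kdr, Tek, Tie1, Emcn, Esam, Ptprb and Cldn5 did not pass the filter. Of the 4 tested, Vwf was lower in BdP than in WT tumours under cisplatin without overlap, at -0.62 ± 0.19 (limma adjusted p = 0.151). The other 3 had a positive difference there, and the median of the 4 was 0.07. In that comparison groups did not overlap for 13% of all genes, and 1.07% were called. The 9 pericyte and smooth muscle markers summed to 2.11 to 3.08 and 2.06 to 3.35 FPKM in BdP tumours under cisplatin and PBS, and to 2.31 to 4.06 and 3.05 to 6.12 FPKM in WT tumours under cisplatin and PBS; only Acta2 was tested, and it was not called. The part of these cells in the Lama4 result was not tested. In whole tumours, fewer cells of a type and less RNA per cell cannot be told apart.

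Lama5 encodes the α5 chain of mature vessel and epithelial basement membranes (ENSMUSG00000015647, chr2:180176373-180225859, minus strand). It was at 2.05, 1.65, 2.24 and 2.79 FPKM in BdP tumours under cisplatin and 2.55, 1.64, 3.31 and 3.93 FPKM in BdP tumours under PBS. In WT tumours it was at 1.96, 2.25, 2.80 and 2.42 FPKM under cisplatin and 1.62, 2.26, 2.24 and 3.49 FPKM under PBS. All groups overlapped and no comparison tested passed, with -0.08 ± 0.20 between BdP and WT under cisplatin (limma adjusted p = 0.896), 0.17 ± 0.20 under PBS (adjusted p = 0.637) and -0.25 ± 0.20 between cisplatin and PBS in BdP (adjusted p = 1). Lama4 and Lama5 together were nearly all of the α level: Lama4 made up 71.7% ± 5.63 in BdP and 79.5% ± 2.85 in WT tumours under cisplatin (SD, n = 4 each; exact permutation p = 0.0571, two-sided), and 69.5% ± 4.09 in BdP and 74.6% ± 5.40 in WT tumours under PBS (exact permutation p = 0.171).

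The other α chains were at or near 0. Lama1, an embryonic chain, had 1 read in all 16 libraries together, in BdP PBS 3, and 15 libraries at 0. In these, 3 reads would stand for 0.00971 to 0.159 FPKM, depending on the size factor of the library. Lama2, the chain of muscle and peripheral nerve, was at 0.150, 0.167, 0.110 and 0.120 FPKM in BdP tumours under cisplatin and 0.0466, 0.0310, 0.1004 and 0.0908 FPKM in BdP tumours under PBS. Those 2 groups did not overlap (exact permutation p = 0.0286, the smallest possible), on 38 to 78 reads per library under cisplatin and 12 to 42 under PBS. This was 1 of 18 such tests of low chains, which were not adjusted. Among genes that passed the filter, groups did not overlap for 4.42% in that comparison. In WT tumours Lama2 was at 0.0287 to 0.127 FPKM under cisplatin and 0.0149 to 0.0599 FPKM under PBS. Lama3, the epidermal α chain, did not exceed 0.145 FPKM in any library.

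Of the markers that go with these low chains, the 9 of skeletal muscle summed to at most 3.65 FPKM in any library, with Myod1 at 0 in all. The 7 Schwann cell markers, several of which melanoma cells also express, summed to 193.71 to 262.74 and 173.19 to 209.81 FPKM in BdP tumours under cisplatin and PBS, and to 165.66 to 249.33 and 120.12 to 188.34 FPKM in WT tumours under cisplatin and PBS, with 5 tested and 0 called. The 10 fibroblast markers summed to 13.6 to 31.0, 7.27 to 50.3, 2.80 to 18.4 and 5.87 to 37.3 FPKM in BdP cisplatin, BdP PBS, WT cisplatin and WT PBS, and the 6 adipocyte markers to 0.540 to 3.48, 2.84 to 8.08, 0.697 to 3.49 and 1.12 to 5.00 FPKM; 0 of either list were called. The 11 leukocyte markers summed to 87.4 to 204 and 100 to 278 FPKM in BdP tumours under cisplatin and PBS and to 21.7 to 122 and 16.2 to 235 FPKM in WT tumours under cisplatin and PBS. All 10 leukocyte markers tested had a higher fitted level in BdP under either treatment, and 0 were called. Their median difference was 0.99 under cisplatin and 0.91 under PBS, beside 0.01 over all genes tested in both. Of all genes, 1.07% were called between genotypes under cisplatin and 0.99% under PBS, so nothing is read from the calls of these lists. Whether immune infiltrate bears on the level of any chain was not tested.

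**Figure D3:**
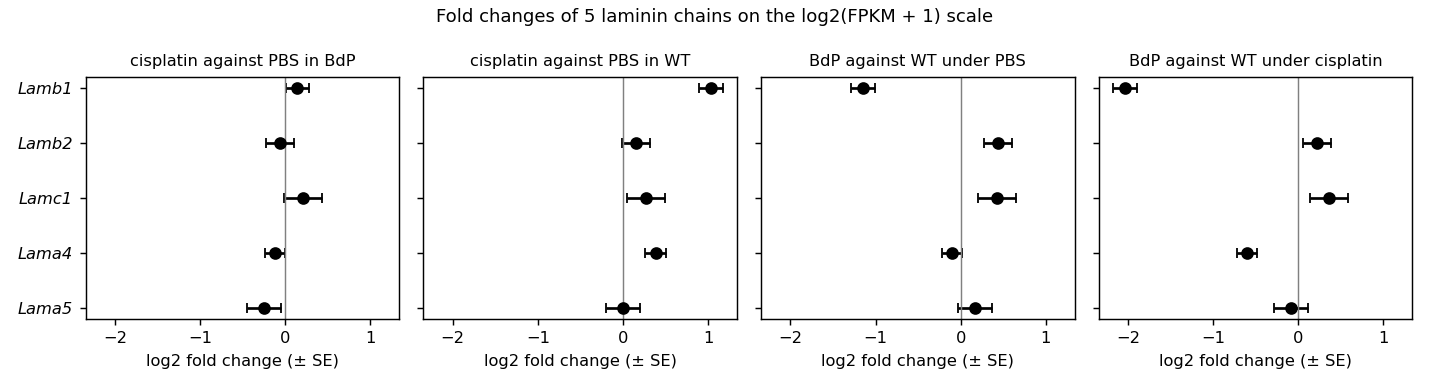
Differences of the 5 chains tested on the log2(FPKM + 1) scale in 4 comparisons; points are fitted differences, the group named first minus the other, and bars are SE. Lamb1 lies at -1.15 and -2.04 between BdP and WT, and Lama4 at -0.60 under cisplatin.

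Ordered by mean FPKM, which is per gene length, the chains of BdP tumours under cisplatin ran Lamc1 (20.6), Lamb2 (11.4), Lama4 (5.95), Lama5 (2.18) and Lamb1 (0.518), and in BdP tumours under PBS they had the same order. In WT tumours under cisplatin the order was Lamc1 (15.8), Lamb2 (9.72), Lama4 (9.55), Lamb1 (5.18) and Lama5 (2.36), where the ranges of Lamb2 and Lama4 overlapped and those of Lamb1 and Lama5 did not. In WT tumours under PBS Lama5 (2.40) and Lamb1 (2.04) overlapped. The summed level of the 9 chains was 41.0 ± 5.23 FPKM in BdP and 42.8 ± 4.05 FPKM in WT tumours under cisplatin, and 40.0 ± 6.87 FPKM in BdP and 33.8 ± 6.89 FPKM in WT tumours under PBS (SD, n = 4 each). These sums overlapped between genotypes under either treatment, also where Lamb1 did not.

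Across the 16 libraries, Lamb2 and Lamc1 varied together, with a Pearson r of 0.81 on log2(FPKM + 1) and 0.76 after the group means were removed. WT PBS 1, with 76.9% mitochondrial reads, was the lowest of the 16 for both, at 6.31 and 7.06 FPKM. The r without that library was not computed. Lamb1 and Lamc1 had an r of -0.30, and Lamb1 and Lamb2 of -0.44. Libraries share depth and scaling, so these are descriptions.

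Among the partners of laminin in the basement membrane, the 1 gene called between genotypes was Sparc, a secreted glycoprotein that binds collagen. Sparc was at 84.6, 63.6, 55.4 and 53.8 FPKM in BdP tumours under cisplatin, against 204, 167, 180 and 178 FPKM in WT tumours under cisplatin. It was at 64.9, 54.7, 70.8 and 58.9 FPKM in BdP tumours under PBS, against 180, 140, 122 and 107 FPKM in WT tumours under PBS. The genotypes did not overlap. Sparc fell by 1.51 ± 0.17 under cisplatin (limma adjusted p = 0.000236) and by 1.11 ± 0.17 under PBS (adjusted p = 0.00700), and it was called in all 16 fits without 1 library in both. With TPM in place of FPKM the call was lost under cisplatin at a difference of -1.37 (adjusted p = 0.877) and under PBS at a difference of -0.12 (adjusted p = 0.881). Over 9 other settings the difference ran from -1.57 to -1.37 under cisplatin and from -1.12 to -0.12 under PBS.

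Sparc was the 1 call among 12 tested of 18 partners in either comparison of genotypes, where 1.07% of all genes were called under cisplatin and 0.99% under PBS, and 0 were called between cisplatin and PBS in BdP. The median difference of the 12 was -0.03 under cisplatin and -0.22 under PBS, beside 0.01 over all genes tested in both. The type IV collagen chain Col4a2 differed by 0.98 ± 0.26 under cisplatin (adjusted p = 0.0945) and 0.92 ± 0.26 under PBS (adjusted p = 0.104), and agrin, Agrn, a proteoglycan that binds laminin, by 0.57 ± 0.16 under PBS (adjusted p = 0.0962). Col18a1 was lower in BdP, with a difference of -0.88 ± 0.33 under cisplatin (limma adjusted p = 0.256). None of these values passed the test. Under cisplatin 6 of the 12 differences were positive and 6 negative, and under PBS 5 were positive and 7 negative. Under PBS the genotypes did not overlap for 2 of the 12, Sparc and Nid1, both lower in BdP, beside 7.68% of all genes. Nid1 differed by -0.36 ± 0.14 there (limma adjusted p = 0.184). Under cisplatin the genotypes did not overlap for 1 of the 12, Sparc, beside 13% of all genes. Between cisplatin and PBS in BdP the median of the partners was 0.10, beside -0.00285 over all genes.

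Of 11 laminin receptors 8 were tested, and Mcam was the 1 called, under cisplatin, where 1.07% of all genes were called between genotypes and groups did not overlap for 13%. Mcam, a cell adhesion molecule of melanoma and vessels that binds the α4 laminin, was at 14.9, 23.0, 6.17 and 11.9 FPKM in BdP tumours under cisplatin, against 43.2, 44.3, 26.8 and 35.2 FPKM in WT tumours under cisplatin, without overlap. It fell by 1.46 ± 0.32 there (limma adjusted p = 0.0424). This call was lost in 11 of 16 fits without 1 library, where the adjusted p ran from 0.0174 to 0.140 over all 16. It was kept in 2 of 9 other settings, where the adjusted p ran from 0.0277 to 1 and the difference from -1.71 to -1.36. Under PBS it was at 6.58 to 11.6 FPKM in BdP and 13.4 to 28.3 FPKM in WT tumours, a difference of -0.80 ± 0.32 (adjusted p = 0.195). The 8 receptors had a median difference of 0.00186 under cisplatin and -0.07 under PBS between genotypes, and 0.12 between cisplatin and PBS in BdP, with 0 called in the last 2. The integrin chains Itga6, Itgb1 and Itgb4 and dystroglycan, Dag1, were tested and not called.

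Of 12 listed enzymes that build the laminin-binding sugar chain on dystroglycan, 10 were found by symbol. All 10 were tested and 0 called in any comparison. Of 9 netrins and relatives with laminin-type domains 8 were found by symbol and 2 tested, Megf6 and Megf9. Of 11 proteases that can cleave laminin 8 were tested, with 0 called in either list. Of all genes, 1.07% were called between genotypes under cisplatin and 0.99% under PBS, so nothing is read from these counts.

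Of the genes within 1 Mb of Lamb1 on chromosome 12, 11 were tested and 0 called in any comparison. Of all genes, 1.07% were called between genotypes under cisplatin and 0.99% under PBS, so nothing is read from that count. The median difference of the 11 between genotypes was -0.10 under cisplatin and -0.03 under PBS. Dld, the gene of dihydrolipoamide dehydrogenase, lies 1.633 kb from Lamb1. It was at 47.9, 50.5, 39.9 and 44.3 FPKM in BdP tumours under cisplatin, against 48.5, 44.1, 33.2 and 39.7 FPKM in WT tumours under cisplatin, and differed by 0.14 ± 0.17 (limma adjusted p = 0.746). Under PBS it differed by -0.03 ± 0.17 (adjusted p = 0.929).

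**Figure D4:**
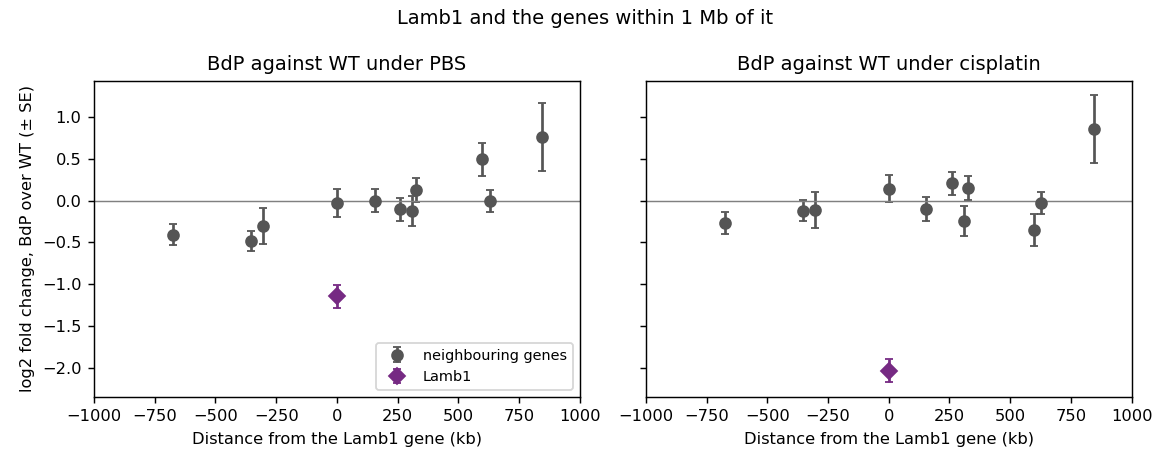
Differences between BdP and WT tumours on the log2(FPKM + 1) scale for Lamb1 and the 11 tested genes within 1 Mb of it, against distance from the Lamb1 gene in kb; bars are SE. The neighbours lie between -0.48 and 0.77 under PBS and between -0.35 and 0.85 under cisplatin, Lamb1 at -1.15 and -2.04.

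Among the 5 protein-coding genes most like Lamb1 on log2(FPKM + 1) over the 16 libraries, of 6477 with a mean of at least 5 FPKM, were Pros1 (Pearson r = 0.927), Ddah2 (0.916), Nectin2 (0.916) and Elf2 (0.911). In all, 66 genes had an r of at least 0.8. Ddah2, which encodes a member of the dimethylarginine dimethylaminohydrolase family, was at 3.19, 3.46, 2.99 and 3.67 FPKM in BdP tumours under cisplatin and 2.64, 3.55, 5.45 and 5.92 FPKM in BdP tumours under PBS. In WT tumours it was at 17.6, 12.3, 12.8 and 11.97 FPKM under cisplatin and 6.75, 8.35, 6.58 and 9.17 FPKM under PBS. Its genotypes did not overlap under either treatment, but it was picked for its likeness to Lamb1, whose genotypes do not overlap. Among the basement membrane genes Sparc (0.907) was nearest, and among the other chains Lama4 (0.820).

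These correlations follow the groups. With the group means removed, the r with Lamb1 was -0.327 for Pros1, 0.0738 for Ddah2, -0.406 for Nectin2, 0.256 for Elf2, -0.329 for Sparc and 0.300 for Lama4. Pros1 is the gene lowered in BdP cells, and its likeness to Lamb1 was across groups and not within them.

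**Figure D5:**
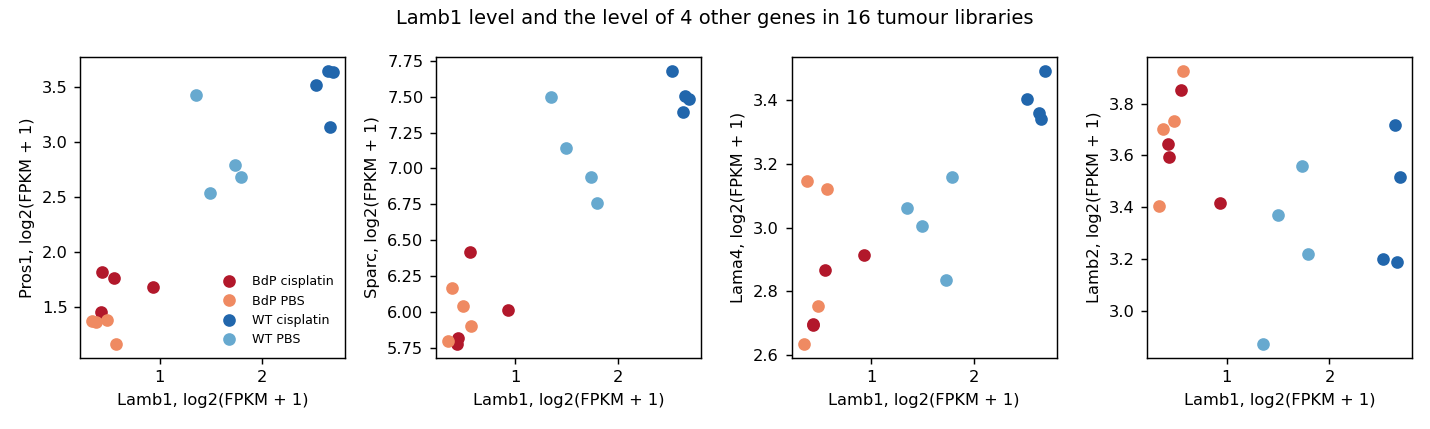
Level of Pros1, Sparc, Lama4 and Lamb2 against that of Lamb1 in 16 tumour libraries, all as log2(FPKM + 1); colours are the 4 groups. Libraries fall into groups along the Lamb1 axis, with r of 0.927, 0.907, 0.820 and -0.435 for the 4 genes.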

How the data were processed

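RNA was sequenced in 16 tumour libraries. Per the submitters' processing notes, CASAVA, HISAT2 2.0.5 and featureCounts 1.5.0-p3 were used with GRCm38 (mm10); nothing used here states strand. The authors deposited 1 table of FPKM. Within each library, FPKM times length came in whole multiples of 1 step for 100% of genes (tolerance 0.1 read), which gave back the reads. The divisor equalled the median-of-ratios size factor (ratio 1.0), so values were not scaled again.

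Group means were fitted to log2(FPKM + 1) over all 16 libraries in limma 3.58.1 (R 4.3.3), with a mean-variance trend and Benjamini-Hochberg adjustment over 12319 genes (at least 1 FPKM in at least 4 libraries). Differences are the first group minus the second, on that log2 scale, which understates changes of low genes. A call is an adjusted p below 0.05. The procedure was tested on simulated data. Single values used exact two-sided permutation tests. Other settings were a pseudocount of 0.1, no filter, TPM with and without mitochondrial genes, a replicate block, 8 libraries per contrast and leaving out libraries. The members and lists were chosen with earlier results of these data known. The β chain shares, the genes within 1 Mb and limma voom on recovered reads were added after seeing the data. Named list genes are every called member and up to 4 with the smallest p; likeness names the 5 highest r with Lamb1, of which 1 gene is not reported here.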

Additional observations from a re-analysis of the deposited data

Results flagged for a closer look

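The share of Lamb1 in the β chain level of BdP cisplatin 2 was 8.39%, against 2.88% to 3.35% in the other 3 libraries of that group. Its gap to the nearest of these was 0.916 of the group's range, above Dixon's 95% critical value for 4 libraries. It was the 1 value of this kind in 28 groups of 4, where chance flags about 5% of groups. The library had 207 Lamb1 reads, against 74 to 148 in the others, and 2.99% mitochondrial reads, inside the range of its group.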

How the results depend on the processing

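Among the 5 chains tested, 0 were called between cisplatin and PBS in BdP and 0 for the interaction in every setting run. Between cisplatin and PBS in WT the 1 call fell to 0 with a pseudocount of 0.1, with no filter, with TPM, with TPM without mitochondrial genes, with the replicate block, with 8 libraries of the contrast and without the libraries rich in mitochondrial reads, and ran from 0 to 1 without 1 library. Between BdP and WT under PBS the 1 call fell to 0 with both kinds of TPM and with 8 libraries, and stayed at 1 without 1 library. Under cisplatin the 2 calls fell to 1, Lamb1, with both kinds of TPM, with the replicate block, without the mitochondria-rich libraries and with voom scaled to non-mitochondrial totals, and ran from 1 to 2 without 1 library. The cause of these losses was not tested. The calls of Lamb1 in WT and between genotypes are descriptions, because WT libraries chose it. The difference of Lamb1 within BdP ran from 0.14 to 0.44 over 9 settings and from 0.03 to 0.20 without 1 library, and was not called.

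Differences that changed sign, none of them called, were Lama4 between BdP and WT under PBS (0.74 with TPM, 0.31 with TPM without mitochondrial genes), Mcam there (0.0689 with TPM), Lama5 between BdP and WT under cisplatin (0.0247 with TPM, 0.0257 without mitochondria-rich libraries, -0.17 to 0.00129 without 1 library), Lama5 between cisplatin and PBS in WT (-0.22 without mitochondria-rich libraries, -0.15 with voom, -0.12 to 0.14 without 1 library), the interaction of Lamc1 (0.0757 without mitochondria-rich libraries, 0.0755 with voom, -0.20 to 0.19 without 1 library) and Lamb2 between cisplatin and PBS in BdP (-0.16 to 0.0131 without 1 library). TPM moved the median of all genes by 0.65 between cisplatin and PBS in WT, 0.76 between BdP and WT under PBS and 0.14 under cisplatin, and without mitochondrial genes by 0.46, 0.40 and -0.04; the TPM values given here include that shift. The calls of Sparc were lost with TPM under both treatments (adjusted p = 0.881 under PBS and 0.877 under cisplatin), and under PBS with TPM without mitochondrial genes (0.263) and with 8 libraries (0.139).

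Calls over all genes between BdP and WT under PBS numbered 122, with 3 to 123 over 9 settings and, without 1 library, 356 (WT PBS 3), 79 (WT PBS 1), 65 (WT PBS 4), 47, 75 and 25 (BdP PBS 1, 3 and 4). Under cisplatin they numbered 132, with 21 to 251 over settings and, without 1 library, 310 (WT PBS 1), 50, 58 and 55 (WT cisplatin 1, 3 and 4) and 62, 62, 68 and 51 (BdP cisplatin 1 to 4). In WT the count ran from 0 to 5, in BdP from 0 to 3 and for the interaction from 0 to 3. With the replicate block the counts were 81 under PBS and 80 under cisplatin, and the adjusted p of Lama4 was 0.0587. Same-numbered libraries of different groups correlated at -0.613 to 0.415 in their deviations from group means, over 0.1 in 9 of 24 pairs, so the numbers were not taken as pairs. The 11 lists with a gene tested, other than the laminin chains, the basement membrane partners and the receptors, had a call in 3 of 1364 combinations of list, comparison and setting. The 2 planned fits in edgeR were not run, and limma voom on recovered reads was run in their place. Depth limits WT PBS 1 most, with 30 Lamb1 reads.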

Other observations

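Lamc3, the γ3 chain of laminin, was at 0.154, 0.178, 0.0930 and 0.225 FPKM in BdP tumours under cisplatin and 0.434, 0.395, 0.651 and 1.22 FPKM in BdP tumours under PBS. In WT tumours it was at 0.0296 to 0.112 FPKM under cisplatin and 0.0622 to 0.200 FPKM under PBS. The BdP libraries under PBS lay above the BdP libraries under cisplatin and above the WT libraries under PBS without overlap (exact permutation p = 0.0286 each, the smallest 4 against 4 can give, in 18 such tests of low chains that were not adjusted). They held 57 to 211 reads per library, and Lamc3 did not pass the filter. Both comparisons use these same BdP libraries under PBS. Among genes that passed the filter, groups did not overlap for 4.42% between cisplatin and PBS in BdP. Between genotypes under PBS that share was 7.68%.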
